A study of Homo sapiens with 4 samples.

Results

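The 56 genes that encode collagen and laminin chains, 44 collagens and 12 laminins, were taken from the 57905 genes of the deposited count matrix by their symbols, COL or LAM followed by the chain number. They were measured by poly(A) RNA sequencing of A549, an epithelial cell line from a human lung adenocarcinoma, in 4 libraries with 1 library per condition. The conditions were a scramble hairpin control (sc), an shRNA against DCBLD2 (shD5), an empty vector (Vec) and a DCBLD2 overexpression vector (OE), the last called the library labelled OE below for the reason given next. Per the study's methods, the lines were made with lentivirus produced in a human embryonic kidney (HEK) packaging line, the hairpins in a puromycin vector and the overexpression construct in a blasticidin vector, so the 2 control libraries differ in vector and selection and were not used as replicates. DCBLD2 is a transmembrane receptor-like protein, and the comparisons ask what its loss or gain does to the transcriptome.

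DCBLD2 itself had 504 CPM (counts per 1000000) in scramble, 197 in shDCBLD2, 434 in vector and 242 in the library labelled OE. It was lower in shDCBLD2 than in scramble, by a log2 ratio of -1.35 (95% counting interval -1.40 to -1.30). Against its label, it was also lower in the library labelled OE than in vector, by -0.84 (-0.90 to -0.79). Any direction given for that library below is therefore that of the library, not of DCBLD2 gain. The libraries held 16601633 to 21537283 counts, and the chains took 0.292% to 0.384% of them. A count of 3 or fewer, 0.139 to 0.182 CPM depending on the library, was read as not detected. The genes that mark epithelium summed to 12570 to 19220 CPM, nearly all of it keratins KRT7, KRT8 and KRT18, with 7 or 8 of 9 over that floor in each library. They also differed between the libraries. By the rule given below, of the 6 past its filter EPCAM, CDH1 and KRT19 were called lower in shDCBLD2 than in scramble, CDH1 with 53.7 against 10.2 CPM. EPCAM and KRT19 were called higher in the library labelled OE than in vector, at log2 ratios of 1.18 and 1.53. Over all genes 5.62% were called lower in the first comparison and 6.42% higher in the second. KRT7 alone of the 6 went the other way in both, at 0.29 in shDCBLD2 and -0.22 in the library labelled OE, and was not called. The part of these epithelial genes in the results was not tested. Of 10 fibroblast genes 4 to 6 were over the floor in each library, led by FBLN1 with 1430 to 1966 counts and THY1 with 64 to 160, while DCN and LUM had 0 counts in 3 libraries and 4 and 1 in the library labelled OE. At most 1 of 7 endothelial genes was over the floor in any library.

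Collagens are built from 3 polypeptide chains wound into a triple helix. The fibrillar types (I, II, III, V, XI) form the cables of connective tissue, type IV forms the sheet-like network of basement membranes, type VI forms beaded filaments, type VII anchors the basement membrane to the tissue under it, and FACIT collagens sit on the surface of fibrils. Laminins are cross-shaped trimers of 1 alpha, 1 beta and 1 gamma chain that start basement membrane assembly and bind integrins on the cell. A trimer needs all its chains, so the level of each chain beside its partners is of interest. In the lung, laminin and type IV collagen lie under the airway and alveolar epithelium.

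The 6 type IV genes lie in the genome as 3 head-to-head pairs, and they are shown first because the pair COL4A1 and COL4A2 differed in pattern across the libraries from the other two. In the RefSeq promoter windows (GRCh38.p14, 250 bases before to 50 after a start), the starts of COL4A1 and COL4A2 are 127 bases apart on chromosome 13 and their windows share 226 bases. The starts of COL4A3 and COL4A4 are 419 bases apart on chromosome 2, with 82 shared bases. COL4A6 has 2 listed starts, 380 and 1416 bases from that of COL4A5 on the X chromosome, and the nearer window shares 121 bases with it. In the sequences, capitals mark 3 motifs, each searched on both strands. They are the GC box spelled GGGCGG, the CCAAT box and the TATA box, which was searched as TATAAA. No 2 matches overlap in the windows shown. The COL4A2 window is chr13:110307034-110307333 on the plus strand, and that of COL4A1, which covers most of the same bases, is not printed. The COL4A3 window is chr2:227164374-227164673 on the plus strand and the COL4A4 window chr2:227164156-227164455 on the minus strand. The COL4A5 window is chrX:108439588-108439887 on the plus strand and the nearer COL4A6 window chrX:108439409-108439708 on the minus strand.
COL4A2: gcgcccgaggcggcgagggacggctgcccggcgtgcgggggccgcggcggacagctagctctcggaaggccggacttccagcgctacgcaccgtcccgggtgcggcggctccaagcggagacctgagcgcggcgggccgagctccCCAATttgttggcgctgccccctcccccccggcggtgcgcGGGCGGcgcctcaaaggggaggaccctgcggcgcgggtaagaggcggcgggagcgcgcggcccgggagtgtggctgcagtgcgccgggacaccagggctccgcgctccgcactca
COL4A3: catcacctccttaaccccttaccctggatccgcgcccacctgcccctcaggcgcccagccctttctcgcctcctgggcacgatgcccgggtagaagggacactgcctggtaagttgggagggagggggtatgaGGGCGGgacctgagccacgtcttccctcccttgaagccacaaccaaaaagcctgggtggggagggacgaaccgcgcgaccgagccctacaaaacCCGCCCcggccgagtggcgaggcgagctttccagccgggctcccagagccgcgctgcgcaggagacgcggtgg
COL4A4: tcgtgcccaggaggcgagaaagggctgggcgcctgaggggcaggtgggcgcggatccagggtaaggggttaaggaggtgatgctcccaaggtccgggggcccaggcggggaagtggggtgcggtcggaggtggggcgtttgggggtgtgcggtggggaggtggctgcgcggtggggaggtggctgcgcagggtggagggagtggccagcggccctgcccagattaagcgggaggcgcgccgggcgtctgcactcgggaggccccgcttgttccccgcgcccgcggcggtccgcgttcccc
COL4A5: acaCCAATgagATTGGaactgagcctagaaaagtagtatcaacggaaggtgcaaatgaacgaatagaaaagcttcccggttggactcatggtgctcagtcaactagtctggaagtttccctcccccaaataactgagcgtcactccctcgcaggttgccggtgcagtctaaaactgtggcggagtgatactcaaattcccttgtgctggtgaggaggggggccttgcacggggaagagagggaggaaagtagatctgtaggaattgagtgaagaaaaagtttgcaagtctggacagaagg
COL4A6: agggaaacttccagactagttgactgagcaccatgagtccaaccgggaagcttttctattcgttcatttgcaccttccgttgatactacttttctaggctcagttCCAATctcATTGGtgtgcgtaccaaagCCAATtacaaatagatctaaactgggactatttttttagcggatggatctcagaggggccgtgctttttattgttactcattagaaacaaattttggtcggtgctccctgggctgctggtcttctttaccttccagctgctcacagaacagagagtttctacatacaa

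The 3 pairs differ in these letters. The COL4A2 window holds 1 GC box and 1 CCAAT and is 77.7% G and C. That of COL4A1 has 2 GC boxes and 1 CCAAT. The COL4A3 window holds 2 GC boxes and no CCAAT, and the COL4A4 window, 74.0% G and C, holds none of the motifs. The COL4A5 window holds 2 CCAAT and no GC box and is 49.3% G and C, and the COL4A6 window, 43.7% G and C, holds 3 CCAAT, of which 2 are those of COL4A5 read from the other strand. The farther COL4A6 window has 1 GC box as its single motif. TATAAA is in none of them. Of the 35116 promoter windows in the table, with a median of 58.7% G and C, 45.0% hold a GC box, 34.6% a CCAAT and 11.5% a TATAAA. Of the 41 chains with a window, 27 have a GC box, 14 a CCAAT and 7 a TATAAA in at least 1 window. These are counts per chain and the percentages are per window, so they are not on the same scale. A match is a description of the letters only.

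In these cells 22 chains had a mean FPKM of at least 1, and the basement membrane chains led. On the FPKM scale, which is per length of exonic sequence, COL4A2 ranked first with 38.2 in scramble, 59.3 in shDCBLD2, 46.6 in vector and 39.6 in the library labelled OE. The laminin chain LAMA5 followed with 42.7, 28.9, 42.7 and 55.0 in the same order, and COL18A1, the source of endostatin, with 31.3, 28.0, 42.9 and 50.6. LAMB1, LAMC1, COL5A2, COL7A1, COL5A1, LAMB2 and COL4A1 made up the rest of the first 10, with mean FPKM from 17.5 to 34.0. Neighbours in this order, such as LAMB1 at a mean of 34.0 and LAMC1 at 33.7, lie closer to each other than their own libraries do. The 44 collagens summed to 173 FPKM in scramble, 232 in shDCBLD2, 213 in vector and 257 in the library labelled OE, and the 12 laminins to 151, 127, 141 and 173. These sums follow the most abundant chains, and there is no replicate to give their spread. In shDCBLD2 against scramble, by the rule given next, 0 of the 10 laminins past its filter were called lower and 1 was called higher. Of the 27 collagens past it, 4 were called higher and 4 lower. Over all genes past it 1.16% were called higher and 5.62% lower. LAMB2 at -0.97 and LAMB3 at -0.94 lay just under 2-fold. In bulk RNA a change in the share of cells that make a chain and a change in its RNA per cell cannot be told apart.

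A library comparison was called where the gene had a mean of at least 1 CPM over the 4 libraries, a ratio of at least 2-fold and an interval, for counting error only, that excluded no change. Of the 56 chains 37 passed this level, 27 collagens and 10 laminins, and 19 did not. Of the 19, 5 were at or under 3 counts in every library, among them COL6A5 and COL9A1 with no count at all. Between the library labelled OE and vector, 13 of the 37 were called higher (35.1%) and 2 lower (5.4%), where 6.42% of all 13966 genes past the filter were called higher and 5.35% lower. The median log2 ratio of the 37 was 0.75, beside -0.04 over all genes. Of the 37, 26 (70.3%) were above 0, beside 47.1% of all genes. Between shDCBLD2 and scramble, 5 were called higher (13.5%) and 4 lower (10.8%), with 1.16% and 5.62% of all genes. Their median log2 ratio was 0.21, beside 0.01. Between the controls, vector against scramble, 3 were called higher (8.1%) and 2 lower (5.4%), with 2.22% and 1.89% of all genes, and the median log2 ratio was 0.10 beside -0.01. The comparison of the controls shares vector with the comparison of the library labelled OE and scramble with that of shDCBLD2.

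These shares are descriptions, since a filter on the mean lets in genes through the library where they are high. LAMA1, COL1A2, COL3A1 and COL22A1 passed only through the library labelled OE, as did 2.66% of all genes past the filter, and COL15A1 only through shDCBLD2. With at least 1 CPM asked of the control library alone, 8 of 31 chains were called higher and 2 lower in the library labelled OE, with 4.28% and 5.92% of all genes. The same filter left 2 higher and 3 lower in shDCBLD2, with 0.801% and 5.90%, and 0 higher and 1 lower in vector, with 1.49% and 2.30%. With scramble in place of vector as the control, 12 chains were called higher in the library labelled OE and 2 lower, with 8.08% and 8.98% of all genes, and 9 and 2 of these were the ones called against vector. COL4A3, COL4A4, COL12A1 and COL17A1 were called against vector only. With vector in place of scramble, 3 were called higher in shDCBLD2 and 2 lower, with 2.23% and 8.01% of all genes, of which 2 and 2 were called against scramble too. The calls of COL5A1, COL13A1, COL22A1, COL21A1 and COL1A2 were lost.

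The laminin alpha chains differed in direction between libraries. LAMA3, the alpha chain of laminin-332 in hemidesmosomes, had 24.6 CPM in scramble, 30.6 in shDCBLD2, 30.6 in vector and 9.15 in the library labelled OE (95% Poisson interval 7.75 to 10.7). It was lowest in the last, with a log2 ratio to vector of -1.73 (-2.01 to -1.48). LAMA5, the alpha chain of laminin-511 and laminin-521, had 613 CPM in scramble, 425 in shDCBLD2, 641 in vector and 814 in the library labelled OE. Neither of its ratios reached 2-fold, with 0.34 (0.31 to 0.38) against vector and -0.53 (-0.57 to -0.49) for shDCBLD2 against scramble. LAMA5 overlaps ADRM1, a proteasome gene with counts of its own, and whether counting used the strand is not given in the sources used here. Of the 56 chains 38 overlap another deposited gene, and 12 overlap one with more than 3 counts in a library. Per length, LAMA5 was 22.9 times LAMA3 in scramble, 12.8 times in shDCBLD2, 19.3 times in vector and 81.8 times (69.7 to 96.7) in the library labelled OE.

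LAMA1, the alpha chain of embryonic laminin-111, was over the floor in 1 library only. It had 0 counts in scramble, 1 in shDCBLD2, 0 in vector and 6.73 CPM (5.53 to 8.10) in the library labelled OE, at least 41.2-fold above the 3 counts in vector that would still read as not detected. LAMA2, the muscle laminin chain, did not pass the filter, with 10, 10, 14 and 35 counts in that order. LAMA4, found in vessels and mesenchyme, had 3.22 CPM in scramble, 3.25 in shDCBLD2, 2.13 in vector and 4.06 in the library labelled OE, and it was not called in any comparison.

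Among the beta chains, LAMB3, the partner of LAMA3 in laminin-332, differed in the opposite direction from LAMA3. It had 39.6 CPM in scramble, 20.5 in shDCBLD2, 28.1 in vector and 95.8 (91.1 to 101) in the library labelled OE. The last stood above the other 3, with a log2 ratio to vector of 1.77 (1.63 to 1.92), and shDCBLD2 stood lowest, at -0.94 (-1.12 to -0.78) against scramble, which is under 2-fold. LAMB2, the beta chain of laminin-521, followed the same order with 124, 63.1, 115 and 193 CPM. Its log2 ratios were 0.75 (0.67 to 0.83) for the library labelled OE against vector and -0.97 (-1.07 to -0.87) for shDCBLD2 against scramble, neither of them called. LAMB1, the beta chain of laminin-411 and laminin-511, varied least of the 3, with 312, 234, 310 and 252 CPM, and overlaps DLD, a mitochondrial enzyme gene with counts. LAMB4 stayed at 2 to 4 counts per library. LAMB2 was 0.470 times LAMB1 per length in scramble, 0.320 times in shDCBLD2, 0.439 times in vector and 0.906 times (0.865 to 0.949) in the library labelled OE.

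Of the gamma chains, LAMC1, the common gamma chain, had 294, 348, 257 and 231 CPM in the usual order of libraries, and LAMC3 had 8.43, 7.23, 12.6 and 8.79, with no call for either.

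LAMB3 and LAMA3 were therefore not in one ratio across the libraries. Per length, LAMB3 was 4.65 times LAMA3 in scramble, 1.94 times in shDCBLD2, 2.64 times in vector and 30.2 times (25.5 to 35.9) in the library labelled OE. In the laminin-511 chains the spread was smaller, with LAMA5 between 1.00 and 1.79 times LAMB1 and LAMB1 between 0.693 and 1.24 times LAMC1. These are transcript ratios, and trimers were not measured. Length here is the deposited exonic size of the gene, the same in every library whichever of its transcripts are made.

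Type IV collagen was led by COL4A1 and COL4A2, which form the common alpha1-alpha1-alpha2 network. COL4A1 had 117 CPM in scramble, 218 in shDCBLD2, 137 in vector and 80.3 in the library labelled OE, and COL4A2 had 294, 467, 374 and 314. Both were highest in shDCBLD2, at log2 ratios to scramble of 0.90 (0.83 to 0.98) and 0.67 (0.62 to 0.72). Both lay lower in the library labelled OE than in vector, at -0.77 (-0.87 to -0.67) and -0.26 (-0.31 to -0.20), though against scramble COL4A2 was at 0.10. None of these reached 2-fold. The deposited entries of the pair overlap each other, so reads there may be split between them. COL4A1 was 0.398 times COL4A2 per length in scramble, 0.468 times in shDCBLD2, 0.366 times in vector and 0.256 times (0.241 to 0.272) in the library labelled OE, so the pair did not keep 1 ratio.

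COL4A3 and COL4A4, whose proteins join COL4A5 in the network of the kidney glomerulus and the alveolus, went the other way. COL4A3 had 7.41 CPM in scramble, 1.99 in shDCBLD2, 4.69 in vector and 10.9 in the library labelled OE, and COL4A4 had 17.0, 4.03, 9.48 and 19.9. For both genes the order of the 4 libraries was the same, with shDCBLD2 lowest. Both were called lower in shDCBLD2 than in scramble, at log2 ratios of -1.84 (-2.42 to -1.40) and -2.05 (-2.43 to -1.73). Both were called higher in the library labelled OE than in vector, at 1.20 (0.84 to 1.61) and 1.06 (0.80 to 1.34), but not against scramble. Vector lay below scramble by -0.65 and -0.83, so the controls differ in the same pair of genes. Per length COL4A3 was 0.474 to 0.595 times COL4A4, with overlapping intervals in the 4 libraries.

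The last pair, COL4A5 and COL4A6, encodes the other network of skin and smooth muscle basement membranes. COL4A5 had 45.5 CPM in scramble, 32.3 in shDCBLD2, 48.7 in vector and 85.0 in the library labelled OE, and COL4A6 had 78.5, 67.1, 74.1 and 140. Both were highest in the last, at log2 ratios to vector of 0.80 (0.68 to 0.93) and 0.91 (0.82 to 1.01), and both lowest in shDCBLD2, at -0.49 (-0.64 to -0.35) and -0.23 (-0.33 to -0.12) against scramble. None was called, and COL4A6 overlaps ATG4A, an autophagy gene with counts. Per length COL4A5 was 0.66 times COL4A6 in scramble and 0.55 times (0.50 to 0.60) in shDCBLD2. It was 0.75 times (0.69 to 0.81) in vector and 0.69 times in the library labelled OE. The intervals of shDCBLD2 and vector do not overlap, so the ratio was not level in this pair either. The 2 pairs with COL4A3 to COL4A6 therefore had the library labelled OE highest and shDCBLD2 lowest, and the COL4A1 and COL4A2 pair had shDCBLD2 highest. In sum the 6 chains ran from 69.3 FPKM in scramble to 98.2 in shDCBLD2, most of it COL4A2.

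**Figure D1:**
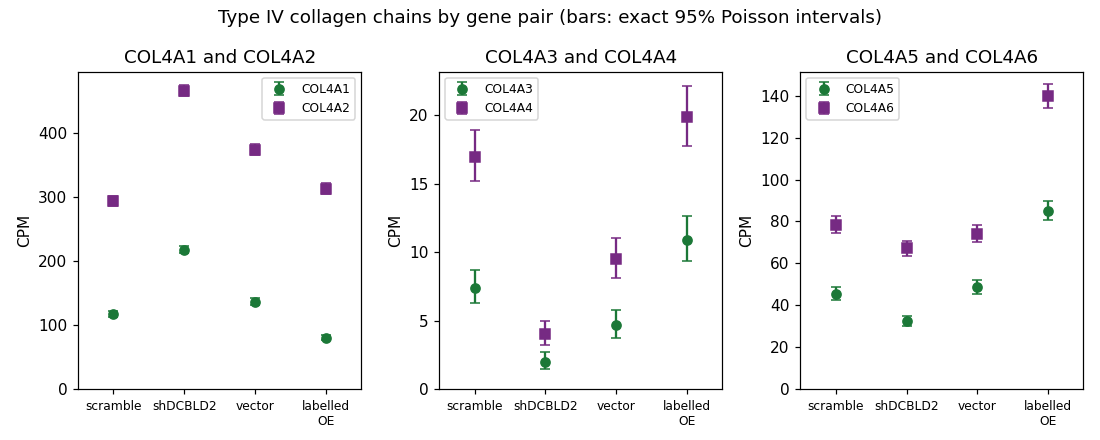
CPM (y axis, linear from 0) of the 6 type IV collagen genes in the 4 libraries, 1 panel per head-to-head gene pair, with exact 95% Poisson intervals. In the left panel shDCBLD2 is highest, at 218 and 467 CPM, and in the middle panel it is lowest, at 1.99 and 4.03 CPM, while in the middle and right panels the library labelled OE is highest.

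Of the 11 fibrillar collagen genes 7 passed the filter. Type V, which sets the width of fibrils, was the main one. COL5A1 had 127 CPM in scramble, 270 in shDCBLD2, 187 in vector and 228 in the library labelled OE, and COL5A2 had 179, 255, 225 and 292.9. Scramble was lowest for both, and the called ratio was that of COL5A1 in shDCBLD2, at 1.09 (1.02 to 1.16), which fell short of 2-fold against vector. COL5A3, the remaining type V chain, was below the filter, with 4 counts in scramble, 71 in shDCBLD2, 1 in vector and 4 in the library labelled OE. Its log2 ratio in shDCBLD2 against scramble was 3.46 (2.59 to 5.92).

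COL1A1, which pairs 2 of its chains with 1 of COL1A2 in type I collagen, had 32.7 CPM in scramble, 54.0 in shDCBLD2, 35.5 in vector and 63.1 in the library labelled OE, with no call. COL1A2 was nearly absent, with 17 counts in scramble, 1 in shDCBLD2, 0 in vector and 67 in the library labelled OE. It was at least 24.8-fold higher in the last than in vector, and lower than in scramble by at least 5.32-fold in vector. The single count in shDCBLD2 gave a log2 ratio to scramble of -2.68 (-9.61 to -1.55). Per length COL1A1 was 42.7 times COL1A2 in scramble (26.4 to 73.7) and 17.7 times in the library labelled OE (13.8 to 22.9), so the message for the second chain was scarce where it was seen at all.

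COL11A1, a fibrillar chain of cartilage, had 30 counts in scramble, 50 in shDCBLD2, 30 in vector and 300 in the library labelled OE, a log2 ratio of 3.39 (2.93 to 4.07) to vector. COL3A1, the partner of type I in skin and vessels, had 9, 18, 6 and 68 counts, a log2 ratio of 3.29 (2.46 to 5.15). In both genes the other 3 libraries lay far below, and neither differed between shDCBLD2 and scramble by 2-fold. COL27A1 was level, with 17.1 to 20.6 CPM. COL2A1, COL11A2 and COL24A1 stayed at 20 counts or fewer in every library.

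Type VI collagen showed a split between its chains. COL6A1 had 39.4 CPM in scramble, 45.5 in shDCBLD2, 43.9 in vector and 59.9 in the library labelled OE, and COL6A2 had 33.0, 31.1, 59.5 and 59.3, without a call. COL6A3, the longest of them, had 24, 32, 20 and 77 counts, and its log2 ratio of 1.997 (1.37 to 2.89) to vector was called. Per length COL6A1 was 118 times COL6A3 in scramble and 47.2 times (37.4 to 60.3) in the library labelled OE. COL6A5 and COL6A6 had 0 to 2 counts. COL7A1, the anchoring fibril collagen, had 137, 217, 176 and 292 CPM in the same order, with log2 ratios of 0.66 (0.59 to 0.73) in shDCBLD2 and 0.73 (0.66 to 0.79) in the library labelled OE. In that library it was called higher against scramble but not against vector. COL26A1 had 4.04, 3.99, 6.05 and 12.6 CPM and was called against vector, at 1.05 (0.72 to 1.41).

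The FACIT, multiplexin and transmembrane collagens were scarce except for COL18A1. COL18A1, a heparan sulphate collagen of basement membranes, had 261 CPM in scramble, 238 in shDCBLD2, 373 in vector and 434 in the library labelled OE. The difference between the controls, 0.52 (0.46 to 0.57), was larger than that of the library labelled OE against vector or of shDCBLD2 against scramble. It overlaps SLC19A1, a folate transporter gene with counts. COL12A1, a FACIT of dense tissue, had 10.6, 7.42, 6.75 and 14.6 CPM and was called higher against vector, at 1.10 (0.79 to 1.44). COL20A1 had 29, 35, 28 and 7 counts and was called lower against vector, at -1.62 (-3.29 to -0.62). COL21A1 had 47, 21, 32 and 49 counts and was called lower in shDCBLD2 than in scramble, at -1.22 (-2.12 to -0.53), but not than in vector, at -0.78.

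Some scarce chains were lowest in scramble. COL22A1, a FACIT of tissue junctions, had 3 counts in scramble, 37 in shDCBLD2, 15 in vector and 35 in the library labelled OE, a log2 ratio of 2.82 (1.82 to 5.83) in shDCBLD2 against scramble. Against vector it was 0.98 and not called. COL15A1, which lies at basement membranes of vessels and muscle, had 4, 45, 18 and 16 counts, with log2 ratios to scramble of 2.82 (1.90 to 5.29) in shDCBLD2 and 1.81 (0.66 to 4.28) in vector. COL13A1, a transmembrane collagen, had 9, 30, 29 and 59 counts, with 1.40 (0.49 to 2.86) in shDCBLD2 and 1.58 (0.66 to 3.04) in vector. All 3 were called higher in vector than in scramble as well, and against vector COL13A1 was not higher in shDCBLD2, at -0.17. COL17A1, the transmembrane collagen of hemidesmosomes, had 32, 48, 13 and 54 counts. It was lowest in vector, called lower there than in scramble at -1.10 (-2.26 to -0.24) and called higher in the library labelled OE than in vector at 2.05 (1.32 to 3.21), but not against scramble.

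**Figure D2:**
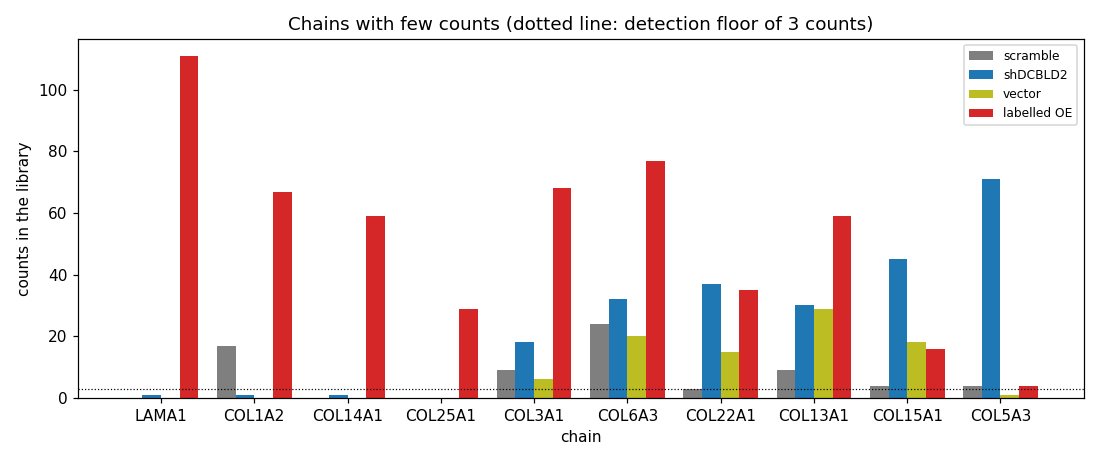
Counts (y axis, linear from 0) of 10 scarce chains in the 4 libraries, chosen after their values were seen, with the detection floor of 3 counts as a dotted line. LAMA1, COL14A1 and COL25A1 are over the floor only in the library labelled OE, with 59 and 29 counts for COL14A1 and COL25A1 and more for LAMA1, and COL5A3 has 71 counts in shDCBLD2 against 1 to 4 elsewhere.

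More chains were detected in the library labelled OE, 49 of 56 over 3 counts, than in scramble (41), shDCBLD2 (41) or vector (40), although it was the smallest library. Over all genes that library also had the most over the floor, 17935, against 17591 in scramble, 17458 in shDCBLD2 and 17489 in vector. LAMA1, COL14A1 (0, 1, 0 and 59 counts) and COL25A1 (0, 0, 0 and 29 counts) had at least 20 counts there and did not pass the floor in any other library. That is 3 of the 40 chains with at least 20 counts in it, beside 1.12% of all genes with at least 20 counts in it, and no chain was confined to another library in this way. COL14A1, a FACIT, was at least 21.9-fold and COL25A1, a transmembrane collagen of neurons, at least 10.8-fold above vector. Other genes moved with these chains. CDKN2A, a tumour suppressor that A549 is known to lack by deletion, had 0 counts in the other 3 libraries and 2104 in the library labelled OE, and its neighbour MTAP had 9, 33, 11 and 104. A list of 10 genes high in HEK cells summed to 46.7, 56.7, 48.5 and 73.3 CPM with 5, 8, 6 and 7 genes over the floor, and 2 of the 10 were at 0 throughout. Of the 7 past the filter, 4 were called higher in the library labelled OE than in vector, beside 6.42% of all genes. They were NEFL (69, 179, 105 and 322 counts), NEFM (1, 4, 0 and 221), LIN28B (25, 25, 27 and 78) and HOXA9 (2, 5, 5 and 59). INA (658, 867, 550 and 227) was called lower, beside 5.35% of all genes. NEFM, HOXA9 and PAX2 passed the filter only through that library. Against scramble, NEFL was also called higher in shDCBLD2 at 1.21. PAX2 was called lower in shDCBLD2 at -1.50 and higher in vector at 1.29. The 10 fibroblast genes summed to 92.7, 70.9, 117 and 129 CPM, nearly all of it FBLN1 (88.3, 66.3, 107 and 118 CPM), which is also a basement membrane gene, with POSTN at 0, 0, 0 and 42 counts. The 8 blood genes summed to 7.82, 3.85, 14.9 and 21.8 CPM, nearly all of it CD14 (7.36, 3.48, 14.2 and 20.1 CPM), and PTPRC, which marks blood cells, was at 0 throughout. The part of these genes' source in the result was not tested. With 1 library per condition, a difference tied to the labelled condition cannot be told apart from any other difference of that library.

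Of 22 genes for collagen biosynthesis, such as prolyl and lysyl hydroxylases and the chaperone SERPINH1, 21 passed the filter. CREB3L1, a transcription factor of collagen secretion, was the single call, higher in the library labelled OE than in vector at 1.53 (0.85 to 2.43) and in shDCBLD2 than in scramble at 1.11 (0.44 to 1.97), with 22, 55, 20 and 55 counts in scramble, shDCBLD2, vector and the library labelled OE. That is 1 of 21 in each, beside 6.42% and 1.16% of all genes, and none was called between the controls. The 21 had median log2 ratios of 0.22, 0.17 and 0.04 in the 3 comparisons in that order. Of 14 genes for processing and cross-linking outside the cell, 10 passed. In the library labelled OE 3 were called higher, the procollagen peptidase ADAMTS2 at 1.86 and the lysyl oxidases LOX at 1.501 and LOXL1, which had 9, 14, 2 and 54 counts. That is 3 of 10, beside 6.42% of all genes. ADAMTS2 and LOXL1 passed the filter only through that library, where they are high. None of the 10 was called in shDCBLD2. LOXL4 at 1.41 and PXDN, which cross-links type IV collagen, at 1.33 were called higher in vector than in scramble, beside 2.22% of all genes.

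Of 13 receptor genes for collagen and laminin 12 passed the filter. In the library labelled OE against vector 2 of the 12 were called higher and 1 lower, beside 6.42% and 5.35% of all genes. In shDCBLD2 against scramble 3 were called lower, beside 5.62% of all genes. In vector against scramble 1 was called lower, beside 1.89%. ITGA11, a collagen-binding integrin chain, had 6.24 CPM in scramble, 2.09 in shDCBLD2, 2.72 in vector and 14.5 in the library labelled OE. It was called higher in the last at 2.37 (1.97 to 2.88), lower in shDCBLD2 at -1.53 (-2.11 to -1.08) and lower in vector than in scramble at -1.16. ITGA7, a laminin receptor chain, was called higher in the library labelled OE at 1.83. ITGA10 was called lower both there, at -1.16, and in shDCBLD2, at -1.21. ITGB4, which binds laminin-332 in hemidesmosomes, had 248, 114, 226 and 384 CPM and was called lower in shDCBLD2, at -1.12 (-1.19 to -1.05). Of 8 partners in the basement membrane, all past the filter, NID1, which links laminin to type IV collagen, had 11.1, 12.7, 13.8 and 60.4 CPM and was called higher in the library labelled OE at 2.12 (1.93 to 2.33). SPARC, a collagen-binding protein, was called higher there too at 1.93 (1.67 to 2.24). SMOC1 was called lower in shDCBLD2 at -1.08, and NID2 higher in vector than in scramble at 1.15. For the 8 partners that is 2 higher in the library labelled OE, beside 6.42% of all genes. It is 1 lower in shDCBLD2, beside 5.62%, and 1 higher in vector, beside 2.22%.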

How the data were processed

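The authors deposited raw read counts per gene for 57905 genes and FPKM values (counts per kilobase of exonic size and per 1000000), with 1 column per library and 1 library per condition. The aligner, counting program and strand setting are not given in the sources used here. The submitters' processing notes name mm9, a mouse build, although the gene identifiers are human, so no deposited coordinates are printed and promoter sequences come from RefSeq on GRCh38.p14 by symbol; 41 of 56 chains matched. Those without a window include COL1A1, COL1A2, COL2A1, COL3A1, COL5A2, COL6A1, COL6A5, COL8A1, COL9A3, COL14A1, COL20A1, COL22A1, LAMA1 and LAMC3. The values of 1 chain are not reported here, though it counts in the totals.

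Counts were scaled by TMM factors from edgeR 4.0.16 (R 4.3.3). Log2 ratios used a prior count of 2, and their 95% intervals come from the exact binomial (Clopper-Pearson) interval of one library's share in both counts. Levels in CPM carry exact Poisson intervals. Both cover counting error only, and reads are not independent molecules. Genes with a mean of at least 1 CPM entered the calls, which asked for 2-fold and an interval that excluded no change. Ratios against 0 counts are bounds against 3 counts in that library, and ratios against 1 to 3 counts are given with the prior count and their counting interval. FPKM was used only to compare genes. Without replicates there are no p-values. The calls were run on simulated Poisson counts with known changes. That simulation holds counting error only, so it cannot show how the calls fare under spread between libraries. Intervals came from scipy 1.17.1 and tables and plots from pandas 2.3.3, numpy 2.4.6 and matplotlib 3.10.9, in Python 3.11.15.

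The chains, the lists and the marker genes were chosen with earlier results of these data known. Named are chains called in any comparison, chains at the floor in 1 library with at least 20 counts in another, the 10 with the highest mean FPKM, and all chains of the common laminins, collagen IV and types I, III and VI; others named were chosen after their values were seen. Alternatives were DESeq2 1.42.0 size factors, library totals, prior counts of 0.5 and 5, no filter or a mean of at least 5 CPM, a 1.5-fold threshold, counts drawn down to the smallest total, chains without overlapping genes, summed entries and the other control library, and, chosen after seeing the data, filters on the control library alone and without the library labelled OE.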

Additional observations from a re-analysis of the deposited data

How the results depend on the processing

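No paired analysis was possible because each condition has 1 library. For the same reason no library could be left out of its own condition, and the library spread is unknown. Counting error alone limits chains with few counts. The main counts of chains, higher and lower, were 13 and 2 for the library labelled OE against vector, 5 and 4 for shDCBLD2 against scramble, and 3 and 2 for vector against scramble. With a mean of at least 5 CPM they were 6 and 1, 2 and 2, and 0 and 0, without LAMA1 and COL1A2 and with 3.13% and 4.55%, 0.554% and 3.11%, and 0.886% and 0.775% of all genes. With a 1.5-fold threshold they were 21 and 3, 9 and 6, and 6 and 5, with 12.8% and 17.8%, 4.93% and 11.6%, and 7.07% and 6.67% of all genes. Among the 10 chains past the filter that overlap no other deposited gene they were 4 and 1, 2 and 1, and 1 and 1. The shares of all genes there are those of the main setting, 6.42% and 5.35%, 1.16% and 5.62%, and 2.22% and 1.89%. With at least 1 CPM in the control library, chosen after seeing the data, they were 8 and 2, 2 and 3, and 0 and 1. With vector as the control of shDCBLD2 they were 3 and 2, and of the ratios called against scramble those of COL13A1, -0.17, and COL1A2, 0.53 from 1 against 0 counts and so under the floor in both, changed sign. Uncalled ratios that turned with the other control were COL12A1 (0.13) and LAMA3 (-0.001) in shDCBLD2 and COL4A2 (0.10), COL6A2 (0.85) and COL15A1 (1.80) in the library labelled OE. With a prior count of 5, 1 chain was lower in vector. With the filter computed without the library labelled OE, also chosen after seeing the data, they were 5 and 3 in shDCBLD2, with COL5A3 in and COL22A1 and COL1A2 out. Of all genes 1.14% and 5.09% were called there. In vector they were 2 and 1, with 278 and 234 of 13663 genes. With no expression filter they were 19 and 2, 6 and 4, and 4 and 2, with 6.52% and 3.52%, 1.45% and 4.43%, and 2.07% and 1.82% of all genes. DESeq2 size factors, library totals, a prior count of 0.5, drawn-down counts and summed entries kept every count within 1.5 times. The median log2 ratio of the chains in the library labelled OE against vector was 0.75 in the main setting. It was 0.41 over the 26 chains with a mean of at least 5 CPM, beside -0.07 over all genes past that filter. Of the 646 alternative log2 ratios of single chains and of DCBLD2, 586 stayed within the main counting interval, and 16 changed sign, of which 2 had been called. Most of these alternatives only rescale the libraries or change the prior count, so the total mainly describes those. With the other control library 7 of 76 changed sign, and many left the interval. For the library labelled OE, COL4A4 went from 1.06 to 0.226 and COL18A1 from 0.219 to 0.735. COL1A1, from 0.826 to 0.947, stayed within its interval.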
